A study of Mus musculus with 75 samples.

Results

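Of 55291 genes in the count table, 10 immediate early and stress response genes were followed: *Fos*, *Jun*, *Junb*, *Egr1*, *Zfp36*, *Ier2*, *Atf3*, *Btg2*, *Socs3* and *Dusp1*. They were taken by name and not by level, and all 10 were among the 11443 genes that passed the filter on low counts. Immediate early genes are switched on within minutes of a stimulus, without new protein synthesis, and are switched off again soon after. Kinase cascades activate factors already bound at their promoters, such as the serum response factor SRF and CREB. The first products are transcription factors of the AP-1 and Egr families, and others among the products are brakes that shorten mRNA life, remove phosphate from MAP kinases or block cytokine receptors. The same genes are known to rise when tissue is dissociated, and all the cells described here were digested with enzymes and picked by hand. Whether handling raised them was not tested.

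The genes were measured in 75 single cochlear cells of C57BL/6 mice, sequenced with a Smart-Seq kit. The 17 WT_P30 OHCs were wild-type outer hair cells of *Slc26a5* CreER/+; Ai9/+ mice, labeled by tamoxifen at P20 and P21 and collected at P30. The 16 WT_P60 SCs were wild-type supporting cells, mostly pillar and Deiters cells, of Fgfr3-iCreER+; Ai9/+ mice given tamoxifen at P30 and P31 and collected at P60. A set of 42 induced cells, also Tdtomato+, came from mice labelled Fgfr3-Atoh1-Ikzf2-DTR. These carried Fgfr3-iCreER+ with CAG-LSL-*Atoh1*+, a *Rosa26* allele with CAG-LSL-*Ikzf2*/+, and *Slc26a5* DTR/+. Tamoxifen at P30 and P31 turned on both transcription factors in SCs, diphtheria toxin at P36 killed OHCs, and P60 was the day of collection. By expression of Myo7a and of Prestin, the product of *Slc26a5*, the authors divided them into 11 OHC-like cells (both), 16 nascent HCs (Myo7a alone) and 15 SCs failing to become HCs (neither).

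The number of mice behind each group is not given in the sources used here, and no label ties a cell to a mouse. Each group therefore counted as 1 sample. No test was made, and the spread over cells is given as a description. The wild-type groups differed in age and in library series as well as in type, and the induced cells came from yet other series, so series cannot be told apart from type or genotype in comparisons with wild-type cells. Total counts ran from 4264780 to 22934062 per cell. Levels are CPM, counts per 1000000 of the scaled total, and a cell was said to hold a gene at 1 CPM or more. OHC markers (*Slc26a5*, *Ocm*, *Myo7a*, *Espn*, *Tmc1*) summed to a median of 30141 CPM in WT_P30 OHCs and to at most 0.305 CPM in WT_P60 SCs. SC markers (*Sox2*, *Sox10*, *Bace2*, *Ceacam16*, *Fgfr3*) summed to a median of 3447 CPM in WT_P60 SCs and 0 in WT_P30 OHCs, though 1 WT_P30 OHC reached 496 CPM. Among induced cells, *Slc26a5* was held by 11 of 11 OHC-like cells and also by 3 of 16 nascent HCs (highest 14.7 CPM). *Myo7a* was held by all cells of both types and by 3 of 15 SCs failing to become HCs (highest 28.0 CPM). *Espn* was held by 15 of 15 SCs failing to become HCs. The 5 macrophage markers summed to at most 0.166 CPM in WT_P60 SCs, with none of the 5 at 1 CPM in any of these cells. Endothelial markers summed to a median of 19.9 CPM in WT_P60 SCs, against 0 in each other group, and reached 296 CPM in 1 WT_P60 SC. The sums came mainly from *Pecam1*, held by 9 of 16 WT_P60 SCs, with *Cldn5* held by 1 and *Kdr* by 0. The part of these markers in the results was not tested. The share of counts on mitochondrial genes had a median of 10.7% in WT_P30 OHCs and 1.82% in WT_P60 SCs. The number of genes at 1 CPM or more had medians of 4777 and 6872.5 in the same groups. Both measures moved with the comparison of these groups, and their part was not tested.

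Promoter sequence was at hand in RefSeq (GRCm38.p6) for 8 of the 10 genes, from 250 bases before to 50 after the start of transcription. The 4 stretches shown hold a searched motif before the start and belong to *Fos*, *Zfp36*, *Btg2* and *Dusp1*, genes on which several of the comparisons turn. They are written 5′ to 3′ on the strand of the gene, with the motif in capitals. The *Fos* stretch is chr12:85473790-85473889 (+), the *Zfp36* stretch chr7:28379229-28379328 (−), the *Btg2* stretch chr1:134079256-134079355 (−) and the *Dusp1* stretch chr17:26508573-26508672 (−).

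Fos: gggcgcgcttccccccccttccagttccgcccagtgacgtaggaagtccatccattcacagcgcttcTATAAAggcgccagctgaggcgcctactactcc
Zfp36: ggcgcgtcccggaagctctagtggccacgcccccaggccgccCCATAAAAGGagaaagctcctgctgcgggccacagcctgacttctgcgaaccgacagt
Btg2: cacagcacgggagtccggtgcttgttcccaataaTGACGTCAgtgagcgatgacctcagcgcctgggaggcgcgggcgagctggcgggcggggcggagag
Dusp1: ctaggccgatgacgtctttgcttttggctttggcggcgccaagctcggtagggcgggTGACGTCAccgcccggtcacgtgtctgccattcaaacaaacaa

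The *Fos* stretch holds a TATA box (TATAAA) that begins 33 bases before the start. The *Zfp36* stretch holds a CArG box, the motif known to bind SRF, that begins 58 bases before the start. *Btg2* and *Dusp1* hold the full cAMP response element TGACGTCA, which CREB is known to bind, 166 and 143 bases before the start. On either strand, a CArG box stood in 1.63% of 32851 mouse promoter windows of this length, TGACGTCA in 1.79% and TATAAA in 13.6%. The *Junb* window also held TATAAA, just after the start. The E-box CAGATG, held by 17.2% of windows, was found in *Atf3*, also before the start, and the AP-1 motif TGANTCA, held by 7.81%, in none of the 8. A match is a run of letters and not a shown binding site. Near matches and sequence outside the window were not searched, so the lack of a match does not show that a promoter lacks such a site.

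The clearest contrast lay between the wild-type groups. All 10 genes had a lower mean in WT_P30 OHCs than in WT_P60 SCs, and 9 of the 10 were more than 4-fold lower, with *Jun* as the exception. Over the 11443 genes that passed the filter, 21.2% were that much lower in WT_P30 OHCs and 13.3% that much higher. The median log2 ratio of the 10 genes was -4.47, and that of all genes -0.12. The mean of log2(CPM + 1) over the 10 genes, called the member score here, was 2.00 ± 1.48 (SD over cells, n = 17) in WT_P30 OHCs and 8.42 ± 1.18 (n = 16) in WT_P60 SCs. The highest score of a WT_P30 OHC was 4.48 and the lowest of a WT_P60 SC 6.02, so the groups did not overlap. The share of all genes that separate groups this fully was not counted, here or for the single genes below. Full separation was not particular to the 10 genes. *Tmod1* had at most 61.5 CPM in WT_P30 OHCs and at least 886 in WT_P60 SCs, and *Socs6* at most 43.0 and at least 303. WT_P60 SCs held 8 to 10 of the 10 genes, and WT_P30 OHCs 0 to 6. The 10 genes took a median of 0.84% of all counts in a WT_P60 SC and 0.028% in a WT_P30 OHC.

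**Figure D1:**
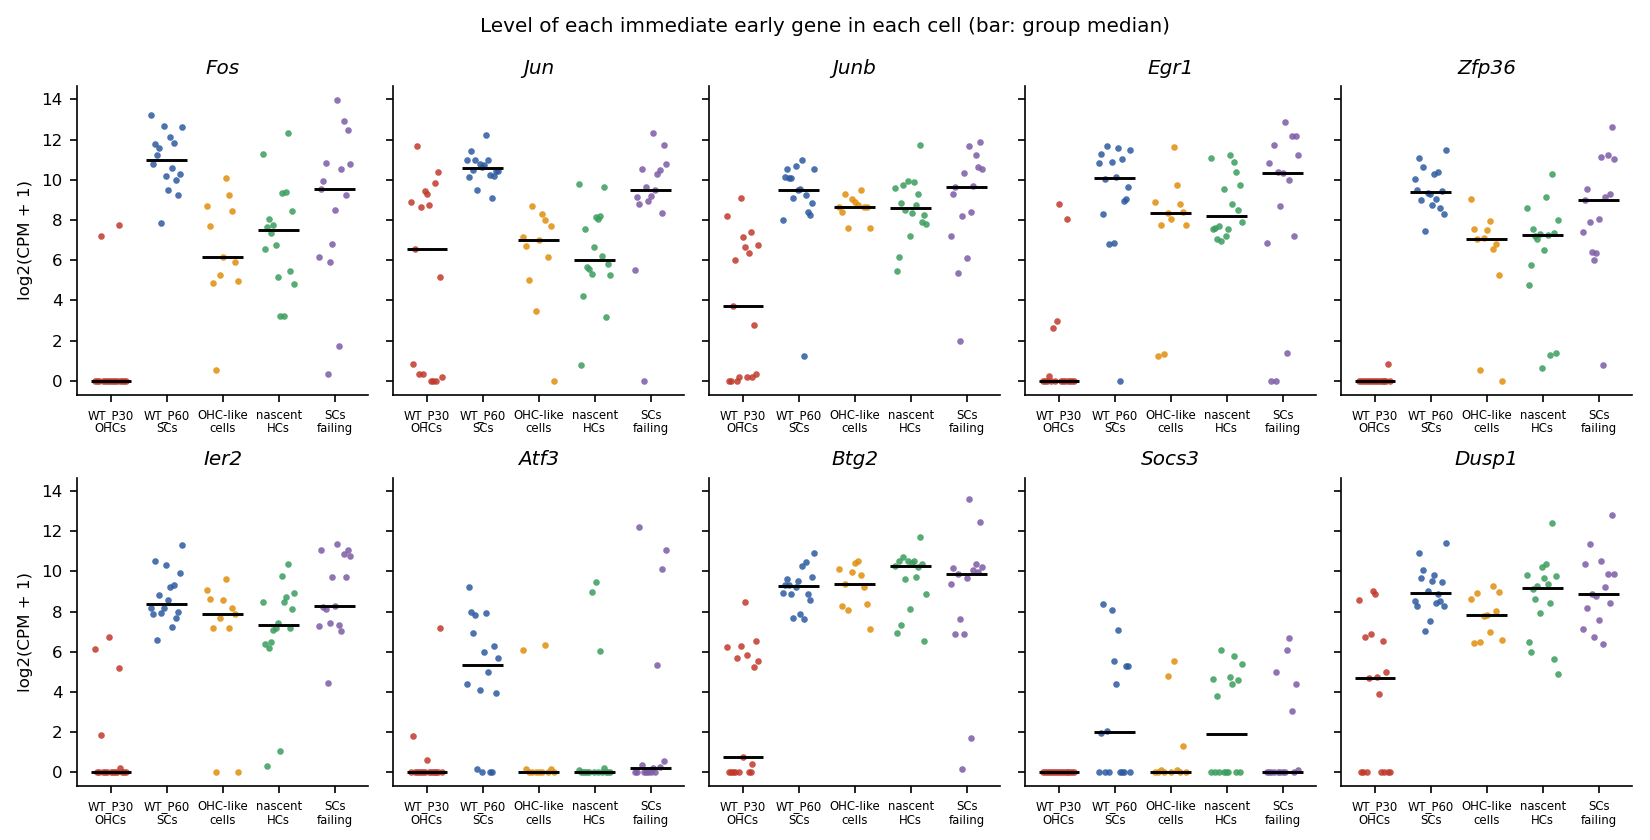
Level of each of the 10 genes in each of 75 cells, as log2(CPM + 1), by group, with a bar at the group median. For *Fos* and *Zfp36* no WT_P30 OHC reached the lowest WT_P60 SC, while for *Btg2* 1 of 11 OHC-like cells lay below every WT_P60 SC and the others among them.

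*Fos* encodes the AP-1 subunit that pairs with Jun proteins. It ran from 231 to 9727 CPM in WT_P60 SCs (median 2061) and was held by 16 of 16. In WT_P30 OHCs it was held by 2 of 17 cells (11.8%, exact binomial 95% interval 1.46 to 36.4%, for the counting of cells only and not for mice), with a median of 0 and a highest value of 216 CPM. The groups did not overlap, and their means differed 141-fold. The medians of the induced cells lay between. They were 69.6 CPM in OHC-like cells (0.447 to 1081), 181 in nascent HCs (8.31 to 5068) and 755 in SCs failing to become HCs (0.251 to 16034). Against WT_P60 SCs the mean was 11.4-fold lower in OHC-like cells and 4.59-fold lower in nascent HCs, and 7 of 11 OHC-like cells fell below every WT_P60 SC.

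*Jun*, the main partner of *Fos*, had the smallest ratio between the wild-type groups. In WT_P30 OHCs it ran from 0 to 3302 CPM, with a median of 92.1 and 10 of 17 cells holding it, against 546 to 4831 CPM (median 1520) in WT_P60 SCs. OHC-like cells had 0 to 419 CPM (median 128), and every one of the 11 cells lay below every WT_P60 SC. In nascent HCs 14 of 16 cells did so, at a median of 64.3 CPM. The median of SCs failing to become HCs was 722 CPM, with a range of 0 to 5119. *Jun* was thus the 1 gene of the 10 with a lower mean in OHC-like cells (152 ± 133 CPM, SD, n = 11) than in WT_P30 OHCs (490 ± 826, n = 17), although OHC-like cells were the lower in 53.2% of pairs of cells alone.

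*Junb*, an AP-1 subunit that can restrain *Jun*, kept closer to the level of SCs. It ran from 1.35 to 2033 CPM in WT_P60 SCs (median 732), from 193 to 727 in OHC-like cells (median 405) and from 42.8 to 3462 in nascent HCs (median 393). All OHC-like cells lay within the range of the WT_P60 SCs. WT_P30 OHCs had a median of 12.2 CPM and a highest value of 553. The exons of *Junb* (chr8:84974484-84978718) share 173 bases with *Prdx2* on the other strand. Whether counting used strand is not stated, and *Prdx2* itself had a mean of 1752 CPM in WT_P60 SCs and 234 in WT_P30 OHCs, so its part in the *Junb* values was not tested.

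*Atf3*, a stress-induced partner of AP-1 proteins, was patchy everywhere. WT_P60 SCs held it in 12 of 16 cells (median 40.8 CPM, highest 604), and WT_P30 OHCs in 2 of 17. Only 2 of 11 OHC-like cells, 3 of 16 nascent HCs and 4 of the 15 SCs failing to become HCs held it. Those few cells could be very high: 3 SCs failing to become HCs lay above every WT_P60 SC, and the highest reached 4756 CPM. These 3 cells came from runs A, C and E, the library series described further on. The group mean of SCs failing to become HCs was therefore 5.00-fold above that of WT_P60 SCs while the group median was 0.16 CPM. As a difference of mean log2(CPM + 1) the direction turned, to -2.04, and as a ratio of medians with a pseudocount of 1 it was -5.17.

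*Egr1*, a zinc finger transcription factor and a classical target of SRF, ran from 0 to 3325 CPM in WT_P60 SCs (median 1086) and was held by 4 of 17 WT_P30 OHCs, with a highest value of 445. OHC-like cells had a median of 325 CPM (range 1.33 to 3126) and nascent HCs of 299 (range 122 to 2420). Both types held it in every cell. SCs failing to become HCs had a median of 1304 CPM and a range of 0 to 7650. *Ier2*, a nuclear protein of the early response, followed a like order. Its median was 335 CPM in WT_P60 SCs and 306 in SCs failing to become HCs, and it was lower in OHC-like cells (233) and nascent HCs (160). Of 17 WT_P30 OHCs 4 held it, with a median of 0 and a highest value of 106 CPM.

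*Zfp36* encodes tristetraprolin, which binds AU-rich mRNAs, *Fos* among them, and speeds their decay. In WT_P60 SCs it ran from 172 to 2898 CPM (median 671). Among WT_P30 OHCs it was at 0 in all cells but 1, which had 6 counts (0.766 CPM), so 0 of 17 cells held it. Taken against a floor of 3 counts per cell (0.443 CPM), its mean was 2154-fold lower in WT_P30 OHCs, the largest ratio among the 10 genes. OHC-like cells ran from 0 to 536 CPM (median 134) and nascent HCs from 0.544 to 1242 (median 149), and in these types 7 of 11 and 11 of 16 cells lay below every WT_P60 SC. The median of SCs failing to become HCs was 505 CPM and their highest value 6327.

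*Btg2*, an antiproliferative protein that recruits the CCR4-NOT deadenylase, was the gene of the 10 whose OHC-like mean lay nearest to that of WT_P60 SCs. Its level ran from 195 to 1905 CPM in WT_P60 SCs (median 618), from 138 to 1440 in OHC-like cells (median 660) and from 92.2 to 3307 in nascent HCs (median 1213). OHC-like cells were the higher in 53.4% of pairs with WT_P60 SCs, and nascent HCs in 64.5%. The log2 ratio of means of OHC-like cells to WT_P60 SCs was 0.07, and it fell below 0 with DESeq2's size factors or total counts. WT_P30 OHCs had a median of 0.725 CPM and a highest value of 360, and 16 of the 17 lay below the lowest WT_P60 SC. The mean of OHC-like cells was 15.8-fold above that of WT_P30 OHCs.

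*Dusp1* encodes a phosphatase that switches off the MAP kinases. It ran from 131 to 2707 CPM in WT_P60 SCs (median 492), from 84.2 to 620 in OHC-like cells (median 223), and from 28.4 to 5427 in nascent HCs (median 586), with a median of 460 and a highest value of 7176 among SCs failing to become HCs. All cells of these 4 groups held it. In WT_P30 OHCs 10 of 17 did, at a median of 24.8 CPM and a highest value of 523. *Socs3*, an inhibitor of cytokine receptor signalling, was the lowest of the 10 by mean TPM (level per exon length) in every group. It was held by 9 of 16 WT_P60 SCs (median 3.00 CPM, highest 326) and had no count in any of 17 WT_P30 OHCs. The mean was at least 124-fold higher in WT_P60 SCs, with WT_P30 OHCs taken at the floor of 3 counts per cell. Induced cells held it in 3 of 11 OHC-like cells, 8 of 16 nascent HCs and 5 of the 15 SCs failing to become HCs, at no more than 104 CPM.

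Against WT_P60 SCs, OHC-like cells were more than 4-fold lower for 5 of the 10 genes, namely *Fos*, *Jun*, *Zfp36*, *Atf3* and *Socs3*, and more than 4-fold higher for 0. Of all genes, 10.5% were that much lower and 18.3% that much higher. The median mitochondrial share was 6.54% in OHC-like cells and the median number of genes 8488, against 1.82% and 6872.5 in WT_P60 SCs, and their part was not tested. Nascent HCs were more than 4-fold lower for 3, *Fos*, *Jun* and *Zfp36*, against 8.73% of all genes, and higher for 0, against 17.7%. Without run E it was 1 gene lower. SCs failing to become HCs were more than 4-fold lower for 0, against 7.31%, and higher for 1, *Atf3*, against 14.9%, and without run A or E for 0. The median log2 ratios of the 10 genes were -2.03, -0.99 and 0.43 in the 3 types, beside 0.31, 0.34 and 0.23 for all genes. The member score was 6.08 ± 1.53 (SD, n = 11) in OHC-like cells and 6.63 ± 1.16 (n = 16) in nascent HCs. For SCs failing to become HCs it was 7.41 ± 2.03 (n = 15). The induced cell had the higher score in 8.52%, 14.1% and 35.0% of pairs with WT_P60 SCs, respectively. For SCs failing to become HCs the measures pointed opposite ways, with a lower score but a median log2 ratio of means above 0.

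**Figure D2:**
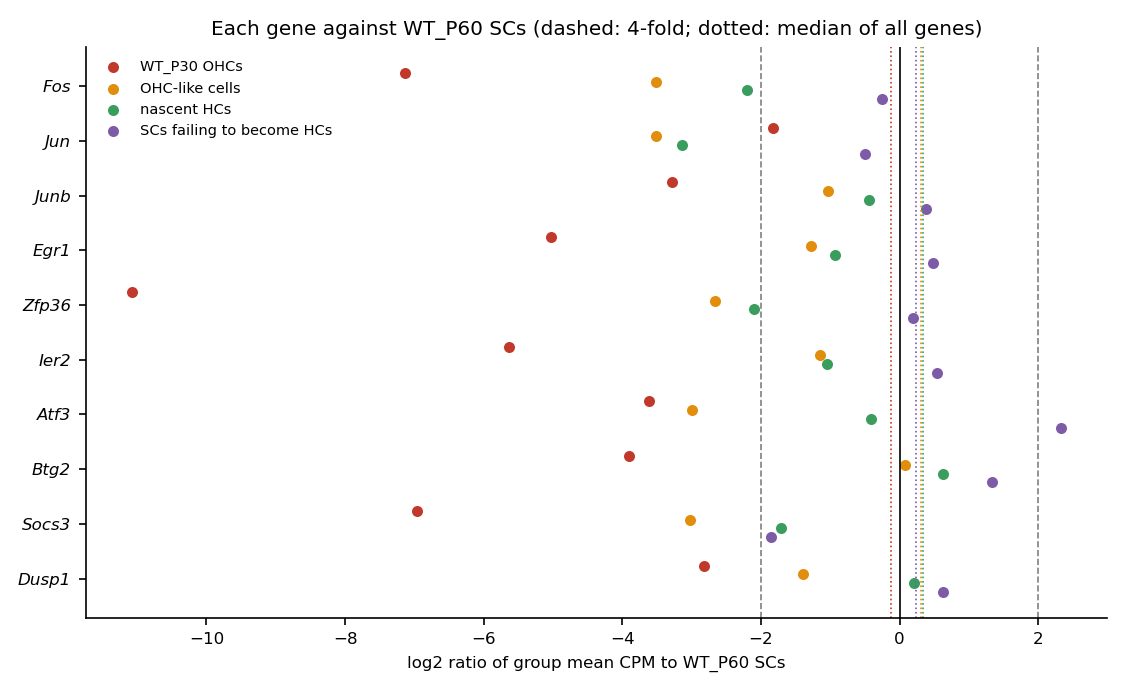
Log2 ratio of the group mean CPM to that of WT_P60 SCs for each gene (rows) in 4 groups (colours), with dashed lines at 4-fold and dotted lines at the median of all genes in each comparison. *Zfp36* in WT_P30 OHCs lies farthest left at -11.07, and *Btg2* in OHC-like cells lies at 0.07 with this scaling and below 0 with DESeq2's size factors.

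Against WT_P30 OHCs, OHC-like cells were more than 4-fold higher for 7 of the 10 genes and lower for 0, where 24.1% and 7.77% of all genes were. The 3 others were *Jun*, *Atf3* and *Dusp1*. The score of OHC-like cells was the higher in 95.7% of pairs, and 9 of 11 OHC-like cells lay above every WT_P30 OHC. The OHC-like cells below 4.48 were cells 4 and 11, with 3.33 and 3.40. Cell 4 also had the fewest genes of its group, 3348, and 23.8% of its counts on mitochondrial genes.

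Among the 3 types of induced cells the ranges overlapped widely. OHC-like cells had lower means than nascent HCs for all 10 genes, although 5 of these directions turned under some alternative. The median log2 ratio was -0.57 for the 10 genes and -0.01 for all genes. Since the genes varied together within groups, the 10 directions are not independent. The difference was more than 4-fold for *Atf3* alone, where 5.03% of all genes were that much lower and 3.35% that much higher. The OHC-like cell had the higher score in 42.0% of pairs. Against SCs failing to become HCs, OHC-like cells were more than 4-fold lower for 5 genes, *Fos*, *Jun*, *Zfp36*, *Atf3* and *Dusp1*, beside 9.83% of all genes, with 11.2% that much higher, and for 3 without SCs failing to become HCs 9 and 14. Nascent HCs were so for 3, *Jun*, *Zfp36* and *Atf3*, beside 7.4%, with 9.6% that much higher. This count was 6 without run D, 1 without run E and 1 without SCs failing to become HCs 9 and 14. For *Jun* the SC failing to become an HC was the higher in 88.2% of pairs with OHC-like cells and 82.9% of pairs with nascent HCs.

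The order of the genes within a cell differed between types as well as their level, and this comparison needs no scaling between cells. Levels per exon length (TPM, with exons from GENCODE M21) are used for it, and the pairs of genes were chosen after their values were seen. *Fos* led the 10 genes in 11 of 16 WT_P60 SCs and in 0 of 11 OHC-like cells. *Btg2* led in 5 of 11 OHC-like cells and 8 of 16 nascent HCs and in 0 of 16 WT_P60 SCs. *Btg2* exceeded *Fos* in 11 of 11 OHC-like cells, in 12 of 16 nascent HCs, in 5 of 15 SCs failing to become HCs, in 10 of 17 WT_P30 OHCs and in 0 of 16 WT_P60 SCs. The log2 of *Btg2* over *Fos*, each TPM with 1 added, averaged 2.28 ± 1.97 in OHC-like cells and -2.02 ± 1.13 in WT_P60 SCs, and these ranges did not overlap. *Junb* likewise exceeded *Jun* in 10 of 11 OHC-like cells and 16 of 16 nascent HCs, in 9 of 15 SCs failing to become HCs, in 6 of 17 WT_P30 OHCs and in 5 of 16 WT_P60 SCs. In WT_P30 OHCs *Jun* led in 8 of 17 cells and *Fos* in 0. By mean TPM, WT_P60 SCs ranked *Fos* first (3440), then *Jun* (1455) and *Ier2* (1136), while OHC-like cells ranked *Btg2* first (560), then *Junb* (390) and *Ier2* (390), with *Fos* at 222 and *Jun* at 81.1. *Junb* and *Ier2* in OHC-like cells did not differ beyond their spread over cells.

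**Figure D3:**
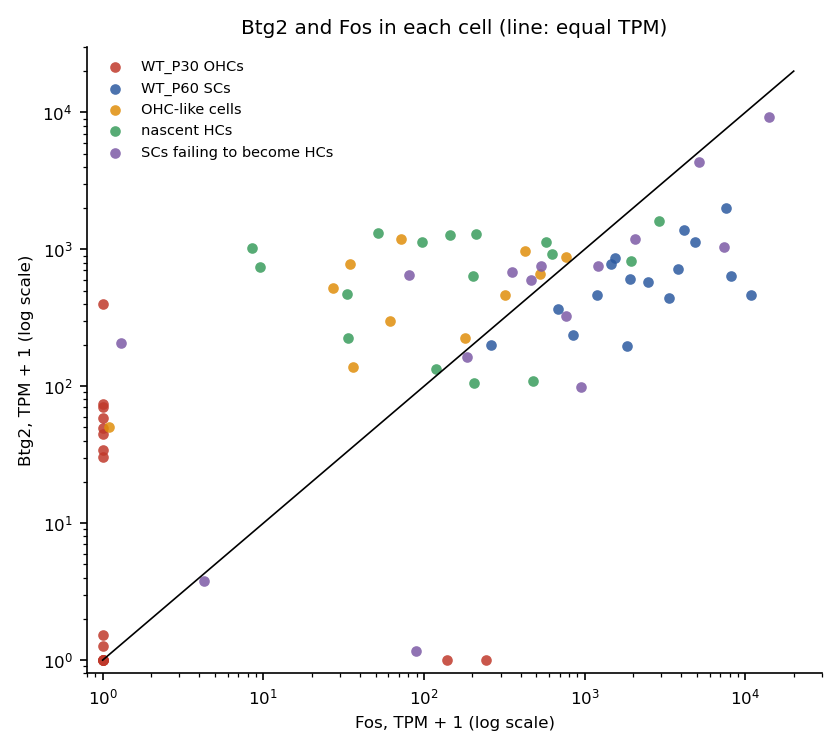
*Btg2* against *Fos* in each of 75 cells, both as TPM + 1 on log axes, coloured by group, with a line where the values are equal. All 11 OHC-like cells lie above the line and all 16 WT_P60 SCs below it.

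SCs failing to become HCs had the largest SD of the member score among the 5 groups, 2.03. Their scores ran from 3.47 to 10.2, wider than the 6.02 to 10.2 of WT_P60 SCs. Cells 9 and 14 were the highest, at 9.77 and 10.2, and 8 of the 10 genes peaked in 1 of them. Cell 9 had 16034 CPM of *Fos* and 12297 of *Btg2*, and cell 14 had 7176 of *Dusp1* and 6327 of *Zfp36*. Together these cells held 67.8% of the group's summed *Btg2* and 57.6% of its *Fos*. With all 15 cells 7 of 10 genes had a higher mean than in WT_P60 SCs, *Zfp36* among them only until DESeq2's size factors were used. The median log2 ratio of all genes was also above 0, at 0.23 with all 15 cells and 0.21 without cells 9 and 14. Without these 2 cells, which were chosen after their values were seen, 2 of the 10 genes had a higher mean. The *Btg2* log2 ratio went from 1.33 to -0.10 and that of *Fos* from -0.26 to -1.29. Under some alternative 8 of the 10 directions against WT_P60 SCs turned. At the other end, cell 5 had no count of *Egr1* or *Jun* and 0.251 CPM of *Fos*, and its 7825 genes at 1 CPM or more were above the group's median of 6977.

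Library series could be compared within the induced cells, which were sorted into 5 series of consecutive library numbers, here runs A to E. The numbers run on from run A through run D, and the widest gap lies before run E. Whether each series was a separate batch was not tested. Runs B, D and E held several OHC-like cells and several nascent HCs. Among these 3 runs, all 10 genes had their highest mean log2(CPM + 1) in run D in both types, as did 18.2% of all 11443 genes. The margin was small for *Atf3* in nascent HCs, 1.56 in run D and 1.52 in run B, and its mean CPM was higher in run B (83.9 against 16.1). *Socs3* in nascent HCs had 3.73 in run D and 3.66 in run E. In OHC-like cells of run D the medians of *Atf3* and *Socs3* were 0 and 0.075 CPM. The 1 OHC-like cell of run A, not ranked here, scored 7.64. The score of OHC-like cells was 7.31 ± 0.79 (SD, n = 3) in run D, 5.52 ± 1.28 (n = 5) in run B and 4.83 ± 2.02 (n = 2) in run E. That of nascent HCs was 7.91 ± 0.85 (n = 4), 6.70 ± 0.90 (n = 6) and 5.74 ± 0.54 (n = 4), and every nascent HC of run D lay above every one of run E. *Egr1* in OHC-like cells had medians of 861 CPM in run D, 214 in run B and 279 in run E, and all 3 cells of run D lay above all 7 of runs B and E. Run D was also the deepest, at 14162715 to 22934062 counts per cell against 6382171 to 11814173 in runs B and E. With every cell thinned to 4264780 counts, the scores were 7.30, 5.51 and 4.83 in OHC-like cells and 7.90, 6.70 and 5.75 in nascent HCs in the same order of runs. By mean log2(CPM + 1) all 10 genes were still highest in run D in both types.

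**Figure D4:**
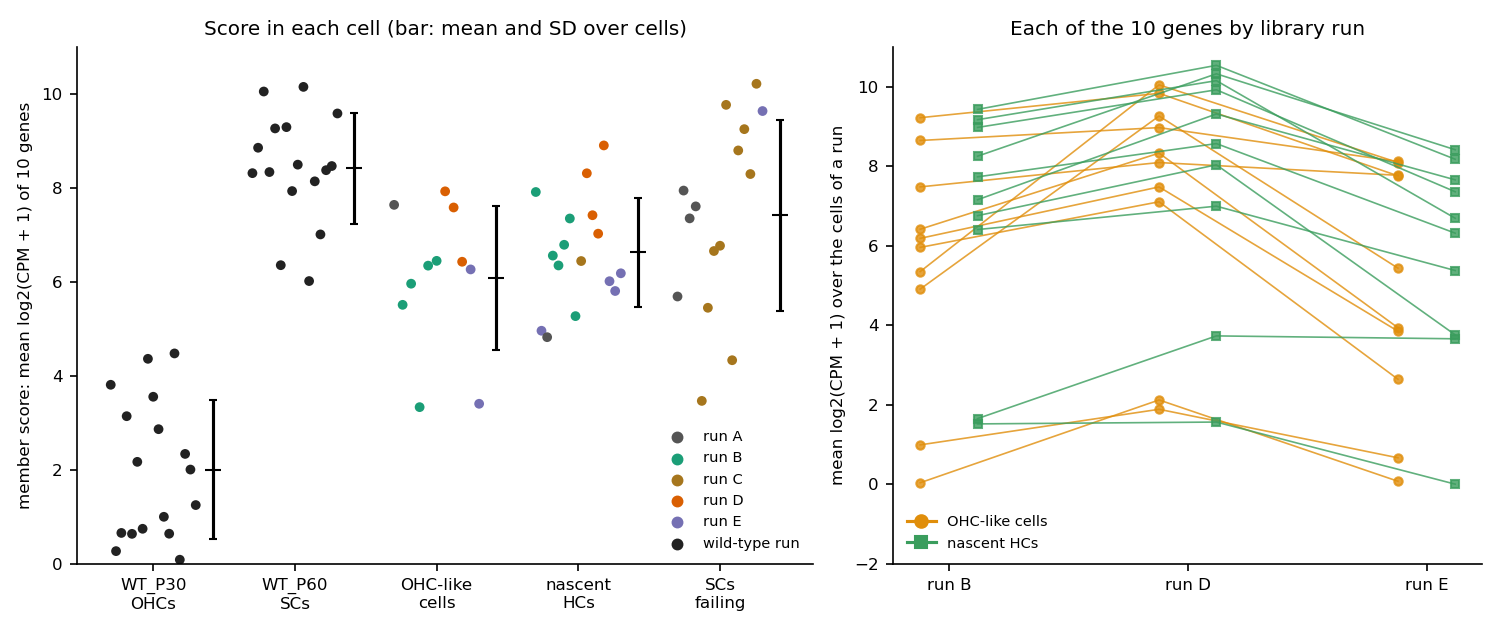
Left, the member score in each cell by group, coloured by library run, with the mean and SD over cells. Right, the mean log2(CPM + 1) of each gene in runs B, D and E for OHC-like cells and nascent HCs. Every line peaks at run D, that of *Atf3* in nascent HCs at 1.56 against 1.52 in run B.

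The difference between OHC-like cells and nascent HCs was -0.56 over all cells, and within runs it was -1.19 in run B, -0.60 in run D, -0.91 in run E and 2.82 in run A, which held 1 cell of each. SCs failing to become HCs came mostly from run C (10 of 15 cells), which held 1 nascent HC and no OHC-like cell. In run C the nascent HC was 0.86 below the mean of these 10. In run E the 1 SC failing to become an HC, at 9.64, stood above all 6 hair cell-like cells of that run. In run A the 4 SCs failing to become HCs averaged 7.15, beside 7.64 for the 1 OHC-like cell and 4.82 for the 1 nascent HC. Type and run could therefore be separated for OHC-like cells and nascent HCs, and only in part for SCs failing to become HCs.

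Within groups the genes varied together to a moderate degree. After the group mean was taken off each cell, the 45 pairs of genes had a median Pearson r of 0.28 over 75 cells, beside 0.02 for all pairs of the 11443 genes, and 38 of 45 were above 0. *Jun* and *Dusp1* had the highest r, 0.59, and *Fos* and *Socs3* the lowest, -0.08. Taking off the mean of each group and run left the median at 0.27. In the 16 WT_P60 SCs alone the median was 0.39, with *Junb* and *Egr1* at 0.85. Cells of a group share handling, and those of a run also a library series. The member score itself had an r of 0.28 with the log10 total count within groups and 0.08 within groups and runs, and 0.03 with the mitochondrial share.

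The genes most like the member score over all 75 cells, by Pearson r of log2(CPM + 1), were *Cyb5r3* (0.84), *Cd164* (0.83), *Tmod1* (0.83), *Cmtm8* (0.83) and *Ppdpf* (0.82). *Tmod1*, an actin-capping protein, ran from 886 to 1902 CPM in WT_P60 SCs and to at most 61.5 CPM in WT_P30 OHCs. Once group means were taken off, the closest were 2 other AP-1 subunits, *Fosb* (0.55) and *Jund* (0.53), with *Acat2* (0.53), *Tmed2* (0.52) and *Echs1* (0.48). *Fosb* had a median of 75.2 CPM in WT_P60 SCs, 0 in WT_P30 OHCs and 150 in SCs failing to become HCs.

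Lists of related genes were counted in the same way, and their counts stand beside the shares of all genes past 4-fold. These were 21.2% lower and 13.3% higher in WT_P30 OHCs, and 7.31% lower and 14.9% higher in SCs failing to become HCs, each against WT_P60 SCs. Of 13 other early response transcription factors that passed the filter, 8 were more than 4-fold lower and 0 higher in WT_P30 OHCs than in WT_P60 SCs, and the median log2 ratio was -2.41. *Bhlhe40*, a circadian and stress-responsive repressor, had no count in WT_P30 OHCs and a mean of 123 CPM in WT_P60 SCs, at least 277-fold higher. *Egr2* had none either, and its mean of 58.4 CPM in WT_P60 SCs was at least 132-fold higher. Among SCs failing to become HCs 7 of the 13 were more than 4-fold higher than in WT_P60 SCs and 0 lower. *Nr4a1*, an orphan nuclear receptor of the early response, averaged 716 ± 1500 CPM there and 19.8 ± 50.6 in WT_P60 SCs, with medians of 1.57 and 0.249. *Klf2* was held by 9 of 15 SCs failing to become HCs and had no count in any WT_P60 SC, at least 201-fold higher by the means.

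Among 8 other AP-1 genes 2 were more than 4-fold lower in WT_P30 OHCs, a share near that of all genes. *Fosb* averaged 0.208 CPM, under the floor, against 99.3, and *Batf* had no count against 8.03. In the other direction *Fosl2* averaged 23.4 CPM in SCs failing to become HCs, 18.7 in OHC-like cells and 13.5 in nascent HCs, against 0.201 in WT_P60 SCs. Of 16 other early response genes, 8 were lower and 3 higher in WT_P30 OHCs. *Rgs2* and *Trib1* had no count in WT_P30 OHCs, while *Tnfaip3* (36.5 against 2.92 CPM), *Plk2* (58.7 against 12.1) and *Homer1* (74.6 against 15.9) had higher means there. For SCs failing to become HCs 6 of the 16 were higher and 0 lower. *Gadd45b*, a stress sensor of the GADD45 family, was held by 11 of 11 OHC-like cells (96.5 to 627 CPM) and 16 of 16 nascent HCs (34.4 to 1574), against 6 of 16 WT_P60 SCs (at most 107) and 2 of 17 WT_P30 OHCs (at most 109). It ran from 0 to 8638 CPM in SCs failing to become HCs (median 58.1, held by 11 of 15).

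Relatives of the brakes went both ways. Among 5 relatives of *Zfp36* and *Btg2*, 2 were lower in WT_P30 OHCs, *Zfp36l1* (4.71 against 208 CPM) and *Btg1* (22.7 against 275), and *Btg3* averaged 122 CPM in SCs failing to become HCs, 119 in OHC-like cells and 134 in nascent HCs, against 21.5 in WT_P60 SCs. Of 6 MAP kinase phosphatases other than *Dusp1*, 2 were more than 4-fold higher in WT_P30 OHCs and 1 lower. *Dusp14* had a mean of 172 CPM in WT_P30 OHCs and was held by 13 of 17, while 0 of 16 WT_P60 SCs held it. *Dusp10* averaged 46.3 CPM against 2.57, and *Dusp6* 14.9 against 142. In each of the 3 induced types 3 of the 6 were higher than in WT_P60 SCs and 0 lower. Of all genes, 18.3% were higher and 10.5% lower in OHC-like cells, and 17.7% and 8.73% in nascent HCs. The 3 were *Dusp5*, *Dusp10* and *Dusp14*, all at or near 0 in WT_P60 SCs, where *Dusp10* was held by 1 of 16 cells. *Dusp5* had no count in either wild-type group and was held by 4 of 11 OHC-like cells, 8 of 16 nascent HCs and 5 of the 15 SCs failing to become HCs.

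Of 14 genes of SOCS and cytokine receptor signalling, 5 were lower and 0 higher in WT_P30 OHCs, namely *Socs6* (3.57 CPM against 741), *Socs1* (no count against 10.1), *Socs2*, *Socs4* and *Il6ra*. Against the same WT_P60 SCs, SCs failing to become HCs had 4 higher, *Cish* (28.6 against 0.985 CPM), *Il6ra* (49.5 against 2.30), *Il6st* and *Tyk2*, and 2 lower, *Lifr* (0.032 against 35.6) and *Socs6* (167 against 741). Among 12 upstream kinases and factors, 3 were lower and 1 higher in WT_P30 OHCs, shares near those of all genes. *Mapk3* (49.5 against 299 CPM) and *Mrtfb*, a cofactor of SRF (19.3 against 104), were among the former with *Elk3*, and *Mapk8*, which encodes a Jun kinase, was the latter (50.6 against 5.59). SCs failing to become HCs had 4 higher, *Mapk8*, *Mapk10*, *Mapk14* and *Srf*, and *Mrtfb* lower. *Mapk10*, with no count in WT_P60 SCs, averaged 17.4 CPM in SCs failing to become HCs, 45.3 in OHC-like cells and 95.7 in nascent HCs. *Srf* averaged 18.6, 32.9 and 22.5 CPM in the same order, against 1.21 in WT_P60 SCs.

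General stress genes had no common direction in WT_P30 OHCs. Of 7 genes of the integrated stress response, 1 was more than 4-fold lower in WT_P30 OHCs, *Nupr1* (7.61 against 66.3 CPM), and the median log2 ratio of -0.25 was close to the -0.12 of all genes. Higher in SCs failing to become HCs were 2 of the 7, *Nupr1* at 429 CPM and *Ddit4* at 6.59. Of 9 heat shock genes, 2 were lower in WT_P30 OHCs, *Hspa1b* (no count against 18.7 CPM) and *Dnajb1* (130 against 781), and 2 higher, *Hsph1* (235 against 23.4) and *Hsp90aa1* (2995 against 653). Of the same 9, SCs failing to become HCs had 3 higher than WT_P60 SCs and 0 lower, *Hspa1a* (44.8 against 2.97), *Hspa1b* (242 against 18.7) and *Hsph1* (170 against 23.4). All 3 counts rested on cell 6, which had 555, 2870 and 2331 CPM. Without it, a choice made after its values were seen, the means were 8.37, 54.3 and 16.0 CPM and 0 of the 9 were past 4-fold. Without cell 6, 6 of the 13 early response transcription factors and 4 of the 16 other early response genes were past 4-fold higher, and *Gadd45b* averaged 532 CPM. Without cells 9 and 14 the counts of SCs failing to become HCs against WT_P60 SCs were as large in every list. The *Nr4a1*, *Hspa1b* and *Nupr1* means there lay far above their medians, as for *Atf3*. So did the means of other genes counted as higher there. Among them were *Dusp14* (mean 239, median 0 CPM), *Dusp5* (124 and 0), *Tnfaip3* (157 and 0), *Il6ra* (49.5 and 0.216) and *Fosl2* (23.4 and 0).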

How the data were processed

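Single-cell Smart-Seq libraries of 75 cells were analysed. The authors deposited raw counts of reads per gene. Per the labels and methods, FastQC 0.11.9, Trimmomatic 0.39, HISAT2 2.1.0 and HTSeq 0.10.0 were used on GRCm38, and StringTie 1.3.5 is also named. Strand setting and annotation release are not given in the sources used here. Without molecular identifiers a count is a read. The interval on a share of cells covers the counting of cells only. The WPRE row, a viral element with 0.025% of counts, was left out.

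CPM were computed from the total count scaled by TMM (edgeR 4.0.16). Genes were kept by filterByExpr (at least 10 counts, with the groups given), which left 11443 of 55291. Ratios were between group means, each set no lower than 3 counts per cell, and were counted past 4-fold. TPM used exon lengths of GENCODE M21 for 53186 genes, and 4 older symbols were matched through RefSeq. Since no cell could be tied to a mouse, no test was made. The ratio computation was tested on simulated data. Alternatives were DESeq2 1.42.0 size factors, total count only, thinning, other summaries, pseudocounts and thresholds, and leaving out cells or runs. The 10 genes, lists and motifs were chosen with earlier results of these data known. All 10 genes are named. In each list, the 2 genes per direction with the largest ratio past 4-fold in WT_P30 OHCs or SCs failing to become HCs against WT_P60 SCs were named, given a mean of 10 CPM or more in 1 group, and likewise the 5 genes most like the member score. *Gadd45b*, *Dusp14* and *Dusp5* were described further after their values were seen. Some genes outside this rule were also named as part of a count past 4-fold. These included *Ddit4*, *Elk3* and *Batf*, with means under 10 CPM in both groups compared, and genes beyond the first 2 of a direction. Marker lists of inner hair cells, blood, fibroblasts, neurons and glia were also summed.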

Additional observations from a re-analysis of the deposited data

How the results depend on the processing

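No paired analysis was possible because the results come from no test and replicate numbers only name cells. Each of the 8 score differences kept its direction under every alternative in which the score was recomputed. Medians, leaving out the highest cell of each group and the 2-fold threshold were applied to single genes or counts only. Of the score values, 86 of 90 moved by less than the SD over cells. The 4 that moved further were those of pseudocounts, with WT_P30 OHCs against WT_P60 SCs at -8.39 (pseudocount 0.1) and -4.35 (10), and OHC-like cells against WT_P30 OHCs at 5.65 and 2.49. The counts of genes past 4-fold stayed within 1.5 times the reported count in 89 of 111 recomputed values. At 2-fold against WT_P60 SCs, 9 genes were lower and 0 higher in OHC-like cells, beside 19.2% and 33.0% of all genes. In nascent HCs 5 were lower and 0 higher, beside 17.8% and 31.9%. In SCs failing to become HCs 1 was lower and 2 higher, beside 17.0% and 28.8%. At 2-fold, OHC-like cells were lower for 10 genes against SCs failing to become HCs, beside 20.7% lower and 23.7% higher. Against nascent HCs they were lower for 4, beside 13.2% lower and 12.0% higher. Nascent HCs were lower for 6 against SCs failing to become HCs, beside 18.1% lower and 21.9% higher. For OHC-like cells against nascent HCs the count past 4-fold was 0 without run B or C and with mean log2(CPM + 1), and 2 without the highest cell of each group. For SCs failing to become HCs against WT_P60 SCs, with 1 gene higher as reported, it was 0 without run A or E. It was 2 (1 higher, 1 lower) without run C, where 13.8% of all genes were higher and 16.6% lower. It was also 2 (1 higher, 1 lower) without 5 cells of low mapping rate, and 2 (0 higher, 2 lower) with medians or mean log2(CPM + 1). For nascent HCs it was 1 without run E against WT_P60 SCs, and against SCs failing to become HCs 6 without run D and 1 without run E. Without SCs failing to become HCs 9 and 14, an alternative chosen after seeing the data, 3 genes were past 4-fold in OHC-like cells and 1 in nascent HCs against SCs failing to become HCs, and with medians the former was also 3. *Atf3* in SCs failing to become HCs against WT_P60 SCs turned to -2.04 with mean log2(CPM + 1) and to -5.17 with medians. Of 80 log2 ratios of single genes, 26 changed sign under some alternative, 1 of them past 4-fold. The causes were not tested. Scaling by total count alone moved the median of all genes in WT_P30 OHCs against WT_P60 SCs from -0.12 to -0.02, and DESeq2's size factors moved it to -0.25. Mapping rates could be matched to the induced cells alone.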

Other observations

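The other marker lists were low in WT_P60 SCs, where summed levels reached at most 15.1 CPM for 3 inner hair cell genes, 25.6 CPM for 3 blood genes, 10.3 CPM for 3 fibroblast genes, 31.7 CPM for 3 neuron genes and 7.90 CPM for 2 glia genes. In WT_P30 OHCs the highest sums were 1376, 78.0, 394, 869 and 0 CPM in the same order. The inner hair cell, fibroblast and neuron sums there rested mostly on *Otof* (held by 14 of 17 cells), *Pdgfra* (15 of 17) and *Snap25* (16 of 17). *Col1a1* and *Dcn* were held by 0 of 17. Blood genes reached 2306 CPM in 1 OHC-like cell, and neuron genes had medians of 148 and 220 CPM in OHC-like cells and nascent HCs. *Snap25* alone had medians of 144 and 150 CPM in these types. Glia genes had medians of 80.8 and 24.9 CPM, with *Mbp* held by 9 of 11 OHC-like cells and 11 of 16 nascent HCs.

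*Jun* (chr4:95049034-95052222), *Zfp36* (chr7:28376784-28380253) and *Dusp1* (chr17:26505590-26562128) also share exon bases with a gene of the other strand in GENCODE M21, namely 232 bases with *Junos*, 125 with *Gm44710* and 11 with *Ergic1*. *Junos* had a mean of at most 9.31 CPM in any group and *Gm44710* of at most 0.158 CPM.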
